A study of Mus musculus with 568 samples.

Results

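Cohesin is built from paralogous subunits, and 9 genes for these subunits were followed here through an in vitro model of the female mouse germ line. The members were chosen by name: the kleisins *Rec8*, *Rad21l* and *Rad21*, the SMC subunits *Smc1b*, *Smc1a* and *Smc3*, and the STAG subunits *Stag3*, *Stag1* and *Stag2*. Of these, 4 (*Rec8*, *Rad21l*, *Smc1b* and *Stag3*) are the meiotic paralogs. The bulk values covered 8 of the 9 members among 16335 genes, and *Rad21l* was not analysed here in bulk. The single-cell counts covered all 9 among 15718 genes. Bulk RNA came from 16 libraries, 4 each of embryonic stem cells (ESCs), epiblast-like cells (EpiLCs), and XGFP+ and XGFP- primordial germ cell-like cells (PGCLCs) sorted on day 5 as CD61+, SSEA1+ and XTomato+. All cells derive from XRep, a female ESC line that is a hybrid of 129S1/SvImJ and CAST/EiJ, with a GFP reporter (XGFP) and a shortened *Tsix* on the 129S1/SvImJ (mus) X chromosome, a tdTomato reporter (XTomato) on the CAST/EiJ (cas) X, and doxycycline-driven *Prdm14*, *Blimp1* and *Tfap2c* transgenes. The truncation makes the mus X the one that is silenced, so XGFP reports its activity, and both PGCLC groups had been cultured with doxycycline. Single cells were taken after 6 days in reconstituted ovaries (rOvaries), aggregates of sorted PGCLCs with somatic cells of fetal female gonads. XGFP+ constitutive cells came from XGFP+ PGCLCs, while XGFPhigh, XGFPintermediate and XGFPlow cells came from XGFP- PGCLCs and were sorted by XGFP, all of them XTomato+, into 518 wells. Single ESCs (24 wells) and 10 empty wells were processed as well.

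Cohesin is a ring of 2 SMC proteins closed by a kleisin, to which a STAG protein binds, and it holds sister chromatids together and shapes chromatin loops. In mitotic cells the ring holds SMC1A (from *Smc1a*), SMC3, RAD21 and either STAG1 or STAG2. Germ cells entering meiosis add REC8 or RAD21L as kleisin, SMC1B in place of SMC1A, and STAG3 in place of STAG1 or STAG2, while SMC3 has no meiotic paralog. REC8 is loaded around premeiotic replication and keeps sister chromatids together until anaphase, and RAD21L is a component of chromosome axes in meiotic prophase.

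To see what the meiotic members share at their start sites, the RefSeq promoters on GRCm38.p6 (250 bases before to 50 after the start, 5′ to 3′ on the gene's own strand) were read for these 4 genes. *Stag3* lies on the plus strand (chr5:138280259-138280558), *Smc1b* on the minus strand (chr15:85131908-85132207), *Rec8* on the plus strand (chr14:55617916-55618215) and *Rad21l* on the minus strand (chr2:151668484-151668783). Capitals mark the E2F-type hexamer TCCCGC and the E-box CACGTG on either strand, and these promoters are shown because they belong to the 4 meiotic members.
Stag3: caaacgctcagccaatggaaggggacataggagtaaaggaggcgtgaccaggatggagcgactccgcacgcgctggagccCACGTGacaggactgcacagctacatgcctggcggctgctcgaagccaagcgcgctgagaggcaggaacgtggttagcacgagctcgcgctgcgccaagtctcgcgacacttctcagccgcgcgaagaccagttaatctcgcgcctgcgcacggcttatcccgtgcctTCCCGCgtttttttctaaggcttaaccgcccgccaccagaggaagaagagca
Smc1b: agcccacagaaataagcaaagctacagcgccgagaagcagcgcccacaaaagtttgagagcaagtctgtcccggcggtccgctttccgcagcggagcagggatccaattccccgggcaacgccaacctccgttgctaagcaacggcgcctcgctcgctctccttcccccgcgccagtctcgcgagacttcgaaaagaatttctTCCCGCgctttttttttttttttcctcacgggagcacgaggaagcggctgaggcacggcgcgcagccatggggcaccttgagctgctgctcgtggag
Rec8: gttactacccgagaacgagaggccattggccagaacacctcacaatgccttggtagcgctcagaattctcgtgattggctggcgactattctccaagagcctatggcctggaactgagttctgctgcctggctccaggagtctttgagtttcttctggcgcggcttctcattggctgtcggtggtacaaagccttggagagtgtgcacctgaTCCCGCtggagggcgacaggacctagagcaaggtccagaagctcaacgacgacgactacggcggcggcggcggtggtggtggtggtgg
Rad21l: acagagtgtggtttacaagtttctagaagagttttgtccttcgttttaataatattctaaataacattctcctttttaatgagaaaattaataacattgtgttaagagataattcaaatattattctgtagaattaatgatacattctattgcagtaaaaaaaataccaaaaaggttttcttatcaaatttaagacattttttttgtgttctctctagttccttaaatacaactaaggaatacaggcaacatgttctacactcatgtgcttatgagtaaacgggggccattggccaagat
The TCCCGC hexamer stood at bases -2 to 4 of *Stag3* (counted from the RefSeq start, with no base 0), at -47 to -42 of *Smc1b* and at -38 to -33 of *Rec8*, and *Rad21l* held none. Among all 32851 promoters of this length, 19.975% held TCCCGC and 7.15% held CACGTG, which occurred once in *Stag3*, at -170 to -165. Promoters were at hand for 7 members, and *Stag1*, *Smc1a* and *Smc3* held TCCCGC as well. *Rad21l* also stood apart in CpG dinucleotides, with 2 in its 300 bases against 18 in *Rec8*, 29 in *Smc1b* and 30 in *Stag3*, and a median of 7 over all promoters. These matches describe the letters only. Windows are set from the RefSeq start. For *Stag3*, *Stag1*, *Rec8* and, by a few bases, *Smc1b* it lies downstream of the first base of the GENCODE gene. Of the genes without a printed promoter, *Rad21* lies at 15:51962240-51991747, *Smc3* at 19:53600398-53645833 and *Stag1* at 9:100597798-100959375 on GRCm38 (mm10).

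Recovered reads on genes ran from 29800000 to 46500000 per bulk library. After the quality limits 462 rOvary cells remained, of which 88 were XGFP+ constitutive (19.05%), 125 XGFPhigh (27.1%), and 249 XGFPintermediate (27.7% of all) or XGFPlow (26.2% of all), with median reads per cell of 354149, 636623, 645474 and 640902. All XGFP+ constitutive cells came from sequencing lane 2, whereas the other rOvary populations were mainly from lane 3, so lane and population cannot be told apart for them. The 24 single ESCs were all in lane 4, which held none of the rOvary cells kept. Lane and cell type thus cannot be told apart between ESCs and rOvary cells. No empty well held a read of any member, and no 2 wells with reads held identical counts, although lanes reuse index names. The pluripotency and early germ cell genes *Nanog*, *Pou5f1*, *Sox2*, *Prdm14* and *Dppa3* were present in both PGCLC groups, with *Dppa3* at 9728 ± 160 (SD) normalized counts in XGFP+ and 5197 ± 640 in XGFP- PGCLCs, *Nanog* at 12047 ± 1114 and 10077 ± 281, and *Prdm14*, *Sox2* and *Pou5f1* higher in mean in XGFP- PGCLCs (3411 against 4291, 10600 against 11455, and 17702 against 19579). *Dazl*, a germ cell RNA-binding protein, was at 4792 ± 2364 and 348 ± 312. *Morc1*, on the same marker list as *Nanog* and *Dppa3*, was at 2812 ± 271 in XGFP+ and 339 ± 130 in XGFP- PGCLCs. ESCs had means of 31563 for *Nanog*, 26711 for *Pou5f1*, 10937 for *Sox2* and 3368 for *Prdm14*. These 4 genes thus do not set PGCLCs apart from ESCs, and *Prdm14* is also a transgene. Of the 462 rOvary cells, 61 had a natural-log normalized *Dazl* at or below 1, and 12 of these, labelled XGFPintermediate germ cells, had a summed mean of 1937 CPM for 8 somatic gonad markers (4 of them with 3 or more of the markers), and 30 XGFPlow ones 241 CPM (2 of them), against at most 12.02 CPM in any cluster described below. The study describes 2 clones of the line with 2 technical replicates each, while a figure legend of it speaks of 4 biological replicates. The labels do not say which clone or culture gave each library of a group. Tests treated the 4 libraries of a group as independent, so p-values measure the spread between these libraries, which may in part be technical. Every pair of libraries of a group differed by more than sampling noise (chi-square per gene of 8.82 to 44.7).

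The mitotic subunits were the more abundant ones in every bulk group. Per kb of exon, *Rad21*, *Smc1a* and *Smc3* led in ESCs at 2595 ± 81, 2413 ± 176 and 1732 ± 28 normalized counts per kb (mean ± SD, n = 4). *Stag2* and *Stag1* followed at 880 ± 63 and 636 ± 24, and *Smc1b*, *Stag3* and *Rec8* came last at 354 ± 253, 283 ± 87 and 162 ± 24. The last 3 could not be ordered among themselves within their spread, except that all ESC libraries of *Stag3* lay above *Rec8* per kb. Per kb of the longest transcript instead, *Smc1a* (2967) lay above *Rad21* (2777) in ESCs and *Stag1* (1212) above *Stag2* (1180). In XGFP+ PGCLCs *Rad21* stood at 4182 ± 373 per kb against 122.3 ± 8.6 for *Rec8*, and in XGFP- PGCLCs at 4597 ± 393 against 209 ± 20. All 3 meiotic members with bulk values were thus transcribed before rOvary culture, at levels below their mitotic partners.

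*Rec8* differed between the PGCLC groups in the opposite direction to *Smc1b* and *Stag3*. Its 4 libraries stood at 374, 345, 386 and 330 normalized counts in XGFP+ PGCLCs and at 693, 583, 619 and 560 in XGFP- PGCLCs, so the groups did not overlap. XGFP- PGCLCs exceeded XGFP+ PGCLCs in *Rec8* by 0.77 ± 0.13 on the log2 scale (difference ± SE, limma-trend on log2(normalized count + 1), adjusted p = 0.000108 over all genes). In EpiLCs it was at 170, 245, 228 and 279, and in ESCs at 464, 409, 572 and 455. EpiLCs thus held the lowest *Rec8*, and it fell by 1.05 ± 0.13 on the log2 scale from ESCs to EpiLCs (adjusted p = 1.15e-06, limma-trend). It rose by 0.66 ± 0.13 from EpiLCs to XGFP+ PGCLCs (adjusted p = 0.000202) and by 1.43 ± 0.13 to XGFP- PGCLCs (adjusted p = 1.21e-08, limma-trend). The first of these calls was lost when only the 2 groups compared were fitted.

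*Stag3* counts were 2041, 2474, 2122 and 2873 in XGFP+ PGCLCs, 1369, 1564, 1370 and 1886 in XGFP- PGCLCs, 1220, 1072, 899 and 589 in EpiLCs, and 1506, 2359, 1252 and 1384 in ESCs. All XGFP+ libraries lay above all XGFP- and all EpiLC libraries. The rise from EpiLCs to XGFP+ PGCLCs was 1.37 ± 0.20 on the log2 scale (adjusted p = 6.90e-06, limma-trend), while the difference between XGFP- and XGFP+ PGCLCs was -0.62 ± 0.20 (adjusted p = 0.0174) and did not pass the threshold of 0.001. *Smc1b* stood at 1667, 2511, 1650 and 2505 in XGFP+ PGCLCs and at 943, 1220, 1032 and 1425 in XGFP- PGCLCs, again without overlap. Its difference of -0.84 ± 0.35 (adjusted p = 0.0591) did not pass, and ESC libraries spread from 518 to 2883 with those of EpiLCs, 825 to 1606, inside that range. No comparison called *Smc1b* at 0.001, and the spread of its ESC libraries, 1434 ± 1023, was the widest of any member in any group relative to its mean.

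Among the mitotic subunits, *Rad21* and *Stag2* moved most and in opposite directions. *Rad21*, the kleisin of mitotic rings, was at 10744, 10830, 10872 and 11490 in ESCs, 7146, 7395, 6960 and 7284 in EpiLCs, 16178, 17668, 17069 and 19886 in XGFP+ PGCLCs, and 17718, 19429, 18965 and 21699 in XGFP- PGCLCs. It fell by 0.61 ± 0.06 on the log2 scale into EpiLCs and then rose by 1.29 ± 0.06 and 1.43 ± 0.06 into XGFP+ and XGFP- PGCLCs (adjusted p = 1.06e-07, 2.39e-12 and 4.10e-13, limma-trend). *Stag2* was at 7146, 7968, 6702 and 7300 in ESCs, 15354, 15889, 16235 and 16090 in EpiLCs, 4934, 5178, 4219 and 4575 in XGFP+ PGCLCs, and 5335, 5443, 5088 and 5163 in XGFP- PGCLCs. It rose by 1.13 ± 0.06 into EpiLCs and fell by 1.75 ± 0.06 and 1.60 ± 0.06 from there into XGFP+ and XGFP- PGCLCs (adjusted p = 1.11e-11, 3.21e-14 and 6.12e-14). Across the 16 libraries *Rad21* and *Stag2* had r = -0.95, a description over 4 groups that share their cell line. In EpiLCs *Stag2* made up 69.6% of STAG RNA per kb, and in XGFP+ PGCLCs 33.4%, where *Stag1* held 42.3% and *Stag3* 24.3%.

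The remaining mitotic members changed less. The largest step of *Smc1a* was a fall of 0.42 ± 0.06 on the log2 scale from ESCs to EpiLCs (adjusted p = 1.21e-05, limma-trend). From EpiLCs to XGFP- PGCLCs it differed by 0.005 ± 0.06 (adjusted p = 0.945, limma-trend). *Smc3* was higher in XGFP+ PGCLCs than in ESCs by 0.47 ± 0.04 (adjusted p = 1.47e-08, limma-trend), its largest step. *Smc1a*, an X-linked gene, stood at 13389, 13293, 12643 and 11751 in XGFP+ PGCLCs and at 9993, 10424, 9930 and 11235 in XGFP- PGCLCs, with no overlap. The difference was -0.30 ± 0.06 on the log2 scale (adjusted p = 0.00101, limma-trend), just above the threshold. With the replicate number as a block it passed (adjusted p = 0.000272), as it did in edgeR (0.000592) and DESeq2 (8.22e-05) on recovered reads. *Smc3* was lower in XGFP- than in XGFP+ PGCLCs by a smaller step, with 11180, 11430, 11234 and 12316 against 13390, 13401, 13274 and 13098 and a difference of -0.20 ± 0.04 (adjusted p = 0.000623). The *Smc3* call was lost without any 1 of the 4 XGFP+ libraries, without XGFP- replicate 1, 2 or 3, under quantile normalization (adjusted p = 0.00281) and with only the 2 groups fitted. *Stag1* ranged from 6956 to 9967 over all 16 libraries and was called in 1 comparison, a rise of 0.27 ± 0.06 from EpiLCs to XGFP- PGCLCs (adjusted p = 0.000733, limma-trend), which was lost without any 1 of the 4 XGFP- libraries, without EpiLC replicate 1, 2 or 3, without ESC replicate 1 and without XGFP+ replicate 3.

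**Figure D1:**
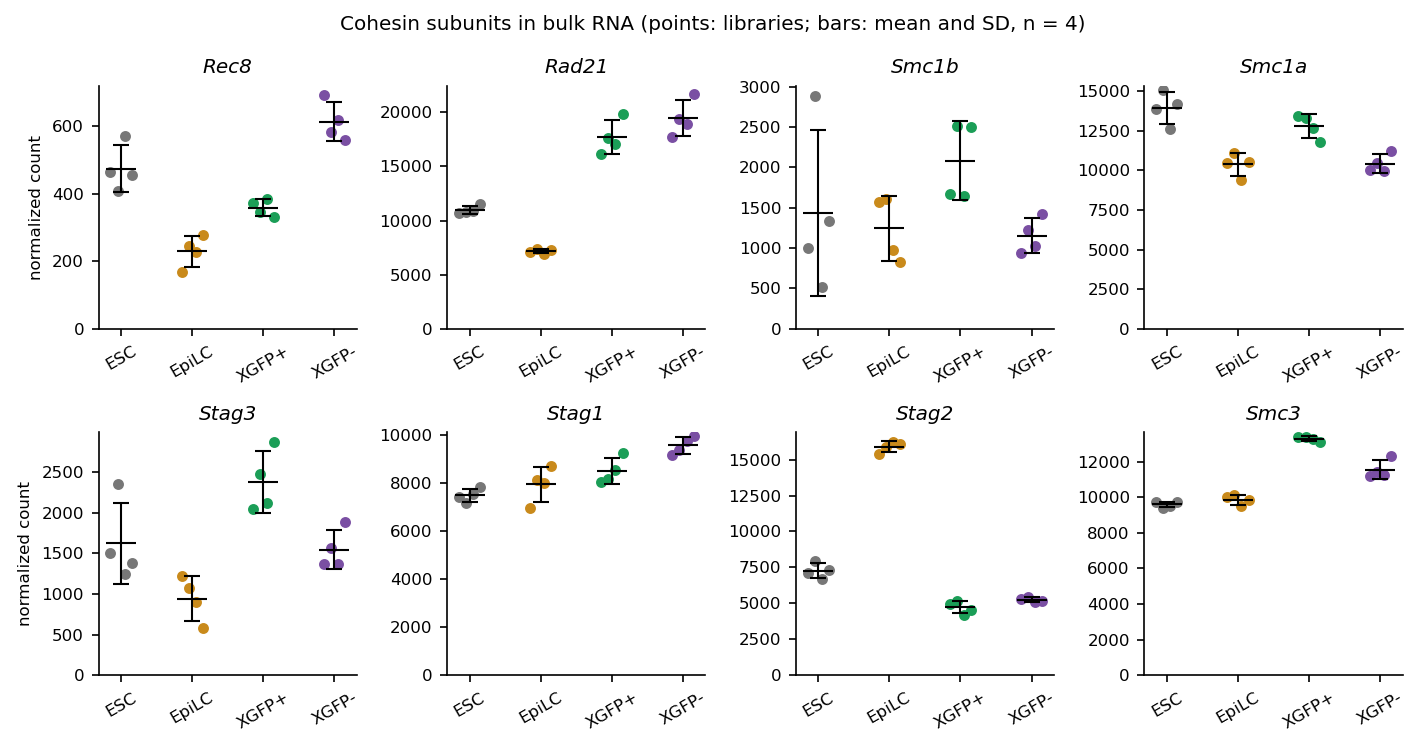
Normalized counts of the 8 cohesin subunits with bulk values; each point is 1 library, and black bars give the mean and SD of 4 libraries in ESCs, EpiLCs, XGFP+ and XGFP- PGCLCs, on linear axes from 0. *Rec8* is lowest in EpiLCs and higher in XGFP- than in XGFP+ PGCLCs, *Smc1b* and *Stag3* are higher in XGFP+ PGCLCs, and *Stag2* peaks in EpiLCs where *Rad21* is lowest.

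Counted over the members, 2 of 8 were called between XGFP- and XGFP+ PGCLCs (*Rec8* up and *Smc3* down), a share close to the 23.8% of all 16281 genes tested. From ESCs to EpiLCs 4 were called (1 up, 3 down), against 47.8% of all genes. From EpiLCs 6 were called in XGFP+ PGCLCs (5 up, 1 down) and 5 in XGFP- PGCLCs (4 up, 1 down), against 57.3% and 61.9%. Between XGFP+ PGCLCs and ESCs 3 were called (*Rad21* and *Smc3* up, *Stag2* down), against 49.9%. Libraries of the 2 groups did not overlap for 5, 5, 7, 6 and 5 members in the same order, against 45.7%, 60.7%, 69.9%, 73.5% and 62.4% of all genes. The median difference over the 8 members was -0.03 on the log2 scale between XGFP- and XGFP+ PGCLCs, -0.21 from ESCs to EpiLCs, 0.54 and 0.25 from EpiLCs to XGFP+ and XGFP- PGCLCs, and 0.33 between XGFP+ PGCLCs and ESCs, and over all genes it lay between -0.026 and 0.013. These comparisons share libraries, and read against the background the members were called about as often as other genes. In bulk, fewer cells of a type and less RNA per cell cannot be told apart.

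A ratio of 2 genes within a library does not depend on its scaling, so each meiotic member was set against its mitotic partner. *Stag3* amounted to 72.97% ± 12.96 (SD, n = 4) of *Stag2* per kb in XGFP+ PGCLCs and to 42.5% ± 7.0 in XGFP- PGCLCs, against 8.6% ± 2.6 in EpiLCs and 31.9% ± 7.4 in ESCs. Against *Stag1* it was at 57.2% ± 6.6, 33.1% ± 4.5, 24.99% ± 9.2 and 44.9% ± 15.5 in the same order. *Smc1b* amounted to 23.4% ± 6.2 of *Smc1a* in XGFP+ and 15.8% ± 2.0 in XGFP- PGCLCs, 17.04% ± 4.9 in EpiLCs and 14.2% ± 9.3 in ESCs. Per kb of exon *Rec8* never exceeded 7.59% of *Rad21* in a library and was lowest in XGFP+ PGCLCs, at 2.95% ± 0.43 against 4.60% ± 0.81 in XGFP- PGCLCs. These percentages depend on the gene length used. Per kb of the longest transcript, *Stag3* in XGFP+ PGCLCs amounted to 66.8% of *Stag2* and 36.9% of *Stag1*. *Smc1b* amounted to 19.04% of *Smc1a* there, and *Rec8* to 3.71% of *Rad21*.

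On the log2 scale the ratio *Rec8*/*Rad21* of XGFP- PGCLCs exceeded that of XGFP+ PGCLCs by 0.63, while *Stag3*/*Stag1*, *Stag3*/*Stag2* and *Smc1b*/*Smc1a* differed by -0.79, -0.78 and -0.54. The first 3 ratios did not overlap between the groups (exact two-sided permutation test, p = 0.0286 each, the smallest value that 4 against 4 libraries allow), and *Smc1b*/*Smc1a* did (p = 0.0571, exact permutation test). Within the 4 same-numbered pairs of libraries, *Rec8*/*Rad21* was higher in XGFP- PGCLCs in 4 of 4 and each other ratio, *Smc1b*/*Smc1a* included, lower in 4 of 4 (exact two-sided sign-flip test, p = 0.125 each, the smallest that 4 pairs allow). The widest step was that of *Stag3*/*Stag2* from EpiLCs to XGFP+ PGCLCs, 3.12 on the log2 scale. Of 20 such comparisons (4 ratios, 5 pairs of groups), 10 reached p = 0.0286, which is 0.0571 after Benjamini-Hochberg adjustment, so none passed 0.05.

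The genes that load, release, acetylate, protect or cleave cohesin were read as a list of 16 regulators, 15 of them with bulk values. Between XGFP- and XGFP+ PGCLCs 3 of 15 were called, against 23.8% of all genes. *Hdac8*, the deacetylase that recycles SMC3 and an X-linked gene, stood at 155 to 212 normalized counts in XGFP+ PGCLCs and at 79.7 to 120 in XGFP- PGCLCs, a difference of -1.01 ± 0.13 on the log2 scale (adjusted p = 4.28e-06, limma-trend). *Esco1*, an SMC3 acetyltransferase, was higher by 0.35 ± 0.08 (adjusted p = 0.000948), and *Cdca5* (sororin, which stabilises cohesion) by 0.30 ± 0.06 (adjusted p = 0.000234). Only the *Hdac8* call held under every alternative. That of *Esco1* was lost in 17, among them edgeR, quantile normalization and leaving out any XGFP- or ESC library, XGFP+ replicate 1, 2 or 3, or EpiLC replicate 2 or 3, and that of *Cdca5* in 6, with only the 2 groups fitted, with a log2 difference above 1 required, and without XGFP+ replicate 2 or 4 or XGFP- replicate 1 or 3. From ESCs to EpiLCs 9 of 15 were called, of which 7 fell, against 47.8% of all genes. The largest decreases were those of *Sgo2b* (-1.42 ± 0.22) and *Sgo2a* (-1.08 ± 0.07), shugoshin genes whose products protect centromeric cohesin, followed by *Sgo1* (-0.62 ± 0.06), the acetyltransferase *Esco2* (-0.60 ± 0.10), securin *Pttg1* (-0.45 ± 0.10) and the release factor *Wapl* (-0.35 ± 0.07), while *Cdca5* (0.42 ± 0.06) and the loader *Nipbl* (0.34 ± 0.08) rose. The calls of *Nipbl*, *Pttg1* and *Wapl* were lost under 15, 9 and 4 alternatives. These included leaving out XGFP+ replicate 2, any XGFP- library, EpiLC replicate 2, 3 or 4 or ESC replicate 1, 2 or 4 for *Nipbl*, any EpiLC library or ESC replicate 1 or 2 for *Pttg1*, and EpiLC replicate 1 or 3 or ESC replicate 4 for *Wapl*. *Sgo2b*, a close copy of *Sgo2a*, was at 12.9 to 92.2 counts in all, and reads of the pair could be split between them. *Sgo2a* stood at 3722 ± 259 in EpiLCs and at 16571 ± 1416 and 18099 ± 2054 in XGFP+ and XGFP- PGCLCs.

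The genes most like each meiotic member over the 16 libraries, among 11701 others with a mean above 100, differed from member to member. For *Rec8* they were *Dnajc14*, *B3gat3*, *Pvr* and *Akt2* (Pearson r of 0.98, 0.97, 0.97 and 0.97). For *Stag3* they were *Kcnu1*, *Pxmp4*, *Ubxn10* and *Ofd1* (0.96, 0.95, 0.92 and 0.91), and for *Smc1b* they were *Hormad2*, *Coq3*, *Tefm* and *Slc25a27* (0.80, 0.79, 0.75 and 0.74). *Stag3* and *Smc1b* had r = 0.71 with each other, and *Stag3* and *Rec8* 0.28. The libraries form 4 groups, so these values describe likeness of pattern.

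*Smc1a* and *Stag2* lie on the X chromosome (X:152016428-152062694 and X:42149317-42277185 on mm10), and the share of reads from the mus allele was read for *Stag2* in bulk and for *Smc1a* in single cells. In XGFP- PGCLCs the mus share of *Stag2* was 0.0385 in replicate 1 and 0 in the other 3, while XGFP+ PGCLCs had 0.280, 0.370, 0.211 and 0.263, EpiLCs 0.318, 0.228, 0.200 and 0.148, and ESCs 0.423, 0.465, 0.265 and 0.300. Every XGFP- library lay below every other library. The difference between XGFP- and XGFP+ PGCLCs was -0.271 (exact two-sided permutation test, p = 0.0286, 0.0714 after adjustment over the 5 comparisons, which is above 0.05). No read numbers come with these shares, so a share of 0 may rest on few reads. How a library with no allelic read of the gene would be listed was not examined. The total *Stag2* RNA of XGFP- PGCLCs was not below that of XGFP+ PGCLCs (5257 ± 161 against 4727 ± 419, adjusted p = 0.0429, limma-trend, above 0.001).

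Over all rOvary cells the 4 meiotic members had their highest mean in XGFPintermediate cells, an order that rests on lane 3. *Smc1b* had a mean of 167 CPM in XGFP+ constitutive, 270 in XGFPhigh, 1110 in XGFPintermediate and 574 in XGFPlow cells, and 9.38 in single ESCs. *Stag3* was at 32.4, 55.3, 270 and 130.6 CPM in the same order, and at 5.74 in ESCs. *Rec8* was at 47.8, 32.8, 100.97 and 93.9 CPM, and at 1.27 in ESCs. *Rad21l* was at 1.71, 11.3, 22.2 and 1.96 CPM, with no read in 24 ESCs. In lane 2, the lane that holds cells of all 4 populations, XGFPlow cells (15) exceeded XGFPintermediate cells (16) in *Smc1b* (981 against 423 CPM), *Stag3* (61.3 against 44.2) and *Rec8* (100.7 against 66.3), and *Rad21l* had no read in either and 2.68 CPM in 14 XGFPhigh cells. A cluster of meiotic-like cells, described below, carried part of these means. Values outside this cluster also leave out the 61 cells low in *Dazl*, which were not clustered. Outside it *Smc1b* was at 146, 123.6, 554 and 517 CPM in XGFP+ constitutive, XGFPhigh, XGFPintermediate and XGFPlow cells. *Stag3* was at 28.2, 18.2, 137.2 and 126.01 CPM there, so that for both genes XGFPhigh cells lay below XGFP+ constitutive cells. Outside it *Rec8* was at 52.7, 34.7, 120.99 and 107.8 CPM and *Rad21l* at 0.548 CPM at most. Each population is 1 sample, since no separate culture is named, so these differences carry no test. Counting error was small beside them: the summed *Smc1b* reads, 5313 in XGFP+ constitutive and 88484 in XGFPintermediate cells, have exact Poisson intervals of 5171 to 5458 and 87902 to 89069. Such intervals cover counting error only. Without the cells low in *Dazl*, XGFPintermediate cells had means of 1223 CPM for *Smc1b*, 298 for *Stag3*, 111.3 for *Rec8* and 24.5 for *Rad21l*.

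Reads of *Rad21l* were found in few cells. At full depth the other meiotic members had at least 1 read in most cells of every rOvary population. *Rad21l* was found in 2.27% of XGFP+ constitutive cells (exact 95% binomial interval 0.276 to 7.97), 5.60% of XGFPhigh (2.28 to 11.2), 20.3% of XGFPintermediate (13.7 to 28.3) and 3.31% of XGFPlow cells (0.908 to 8.25). *Rec8* was found in 70.5%, 64%, 76.6% and 85.1%, *Stag3* in 64.8%, 57.6%, 86.7% and 66.9%, and *Smc1b* in 87.5%, 96.8%, 92.2% and 81.8%. *Smc1b* thus had reads in more XGFPhigh than XGFPintermediate cells although its mean was lower there, so its share gives no order. Without the cells low in *Dazl* its shares were 93.4%, 96.6%, 100% and 96.7%, highest in XGFPintermediate cells. In single ESCs, at a median of 1103780 reads, the shares were 25% for *Rec8*, 41.7% for *Stag3*, 45.8% for *Smc1b* and 0 for *Rad21l*. Thinned to 100000 reads a cell, *Rad21l* was found in 1.14%, 5.60%, 20.3% and 3.31%. *Rec8* was then found in 61.4%, 45.6%, 71.1% and 81%, *Stag3* in 52.3%, 42.4%, 82.8% and 64.5%, and *Smc1b* in 86.4%, 93.6%, 92.2% and 80.2%. At this depth *Rec8* and *Stag3* thus had reads in a minority of XGFPhigh cells. With lane 2 alone, *Rad21l* was in 0 of 16 XGFPintermediate cells, and its level in that population rests on lane 3, where it was in 23.2% of cells. *Smc1b* and *Stag3* had means of 1208 and 303 CPM in the XGFPintermediate cells of lane 3, above those of lane 2. The part of the lane in these values was not tested.

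Of the mitotic partners, *Rad21*, *Smc1a* and *Stag2* had their highest mean in XGFP+ constitutive cells. *Stag1* had its highest in XGFPintermediate cells over both lanes. *Rad21* was at 160 CPM in XGFP+ constitutive, 132.1 in XGFPhigh, 112.99 in XGFPintermediate and 120.95 in XGFPlow cells, and *Smc1a* at 458, 325, 294 and 262. *Stag2* was at 127.4, 79.8, 57.5 and 47.2 CPM and *Stag1* at 85.2, 70.9, 98.1 and 76.99, while *Smc3*, which both kinds of ring need, was at 478, 452, 570 and 481. Per kb of exon *Smc1b* made up 34.1% of SMC1 RNA in XGFP+ constitutive, 54.2% in XGFPhigh, 84.3% in XGFPintermediate and 75.7% in XGFPlow cells. *Stag3* made up 20.004%, 38.1%, 75.5% and 65.04% of STAG RNA. Of kleisin RNA, *Rec8* and *Rad21l* made up 29.6% and 1.88% in XGFP+ constitutive cells, 22.7% and 13.8% in XGFPhigh, 46.2% and 17.99% in XGFPintermediate, and 51.8% and 1.92% in XGFPlow cells. Per kb of the longest transcript instead, *Smc1b* made up 29.7%, 49.1%, 81.4% and 71.7% of SMC1 RNA in this order of populations. Which SMC1 gene led in XGFPhigh cells thus depended on the gene length used. Outside the meiotic-like cluster, again without the cells low in *Dazl*, *Smc1b* made up 30.6%, 34.3%, 69.5% and 71.8% of SMC1 RNA per kb of exon. *Stag3* made up 17.9%, 17.1%, 64.7% and 64.7% of STAG RNA there, in the same order of the 4 populations. *Rad21l* was at 0 of kleisin RNA in XGFPhigh cells there, so the 7 XGFPhigh cells of that cluster carried its 13.8%. In single ESCs the meiotic subunits were minor, with *Rec8*, *Smc1b* and *Stag3* at 2.69%, 4.03% and 14.04% of their families.

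**Figure D2:**
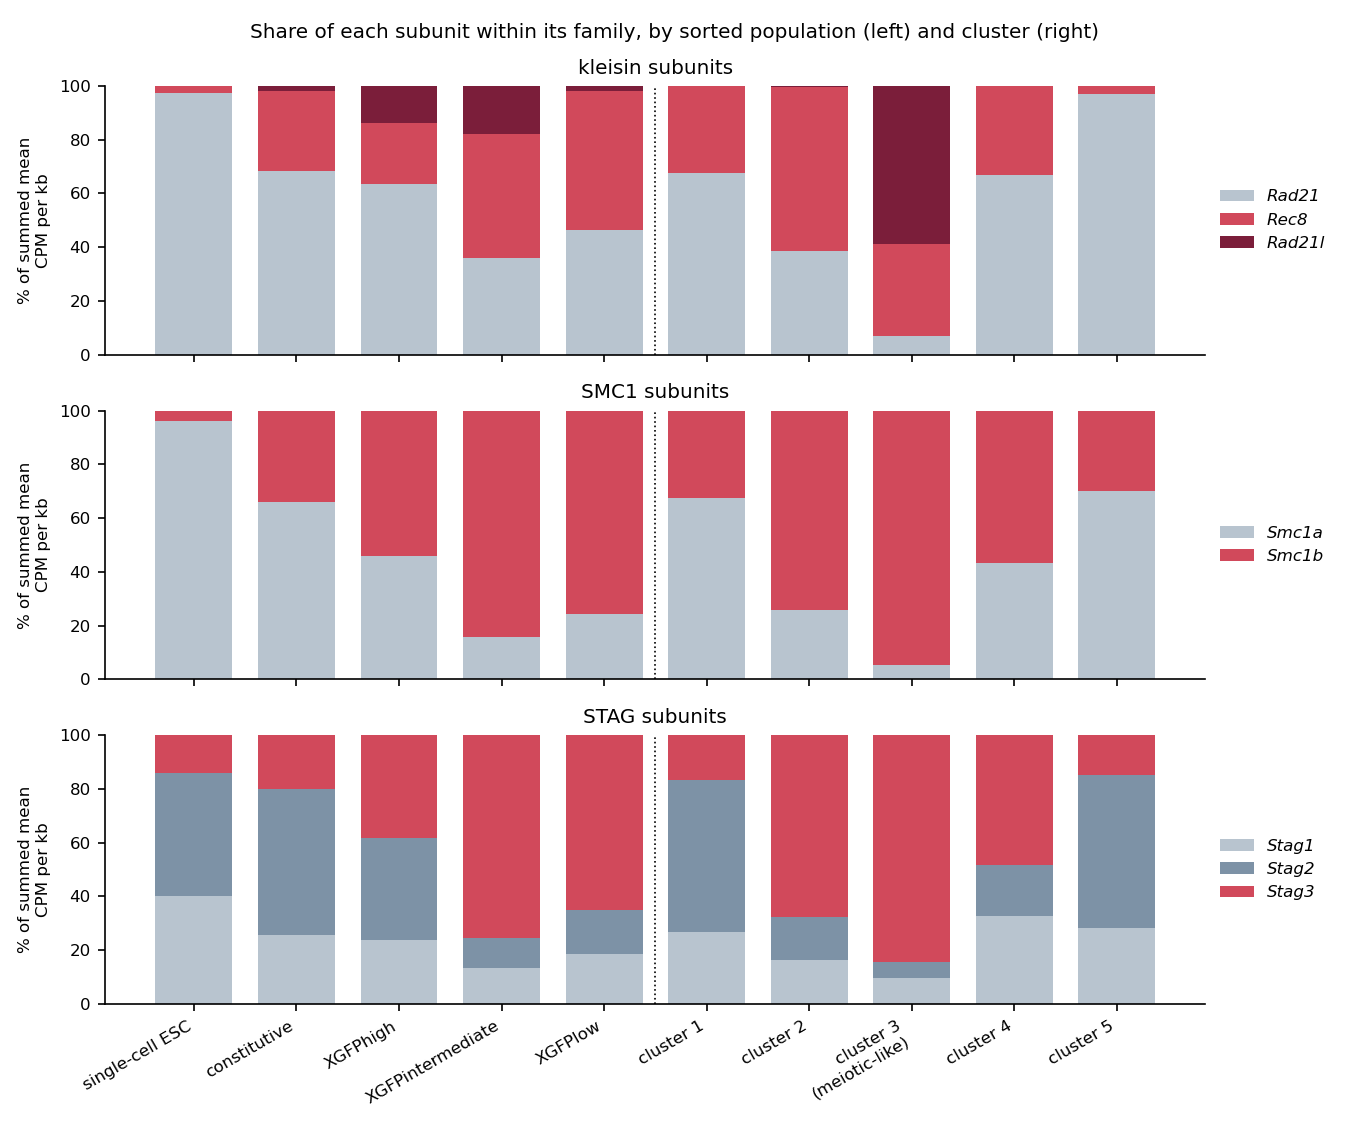
Share of each subunit within its family, as a percentage of the summed mean CPM per kb of exon, for single ESCs and the 4 sorted rOvary populations (left of the dotted line) and the 5 clusters of rOvary cells (right). Meiotic subunits are in red tones and mitotic ones in grey-blue tones; *Smc1b* holds 84.3% of SMC1 RNA in XGFPintermediate cells and 94.8% in cluster 3, and *Rad21l* is wide only in cluster 3, at 58.8% of kleisin RNA.

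Cell by cell, *Smc1b* per kb exceeded *Smc1a* in 98 XGFPintermediate cells (76.6%, interval 68.3 to 83.6) and in 69 XGFPlow cells (57.02%, 47.7 to 65.99), against 24 XGFPhigh (19.2%, 12.7 to 27.2) and 11 XGFP+ constitutive cells (12.5%, 6.41 to 21.3). *Stag3* exceeded *Stag2* in 96 (75%), 69 (57.02%), 24 (19.2%) and 15 (17.05%) cells in the same order. *Rec8* exceeded *Rad21* in 58 (45.3%), 54 (44.6%), 15 (12%) and 11 (12.5%). Per kb of the longest transcript, *Smc1b* led in 91, 66, 19 and 7 cells and *Stag3* exceeded *Stag2* in 94, 68, 23 and 13. *Rec8* then led in 63, 59, 16 and 14. No ESC had more *Rec8* than *Rad21* or more *Smc1b* than *Smc1a* per kb (0 of 24, exact interval up to 14.2%), but *Stag3* exceeded *Stag2* in 5 of them (20.8%) and *Stag1* in 2 (8.33%), so for *Stag3*/*Stag2* the share in ESCs was no lower than in XGFPhigh (19.2%) or XGFP+ constitutive cells (17.05%). With *Stag2* as the partner of *Stag3*, *Rec8* thus led in the fewest cells of the 3 populations from XGFP- PGCLCs, compared with *Smc1b* and *Stag3*. Against *Stag1*, per kb of the longest transcript, *Stag3* led in 58 XGFPlow cells and *Rec8* in 59, so there the order depended on the partner and length.

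Clustering the 401 rOvary cells with *Dazl* above 1, without the members among the genes used, gave 5 clusters. Cluster 3 (57 cells) is called meiotic-like, because all 8 listed meiotic markers had their highest mean there. *Sycp3*, a synaptonemal complex gene, was also among its 10 leading genes by fold, after *Ccnb3*, *Rad51ap2*, *Taf7l*, *Tex101* and *Sycp2*. It held 35 XGFPintermediate cells (30.2% of those clustered), 13 XGFPlow (14.3%), 7 XGFPhigh (5.93%) and 2 XGFP+ constitutive cells (2.63%). Clusters 1, 2, 4 and 5 (33.4%, 26.7%, 14.2% and 11.5% of the cells) stay unnamed. Clusters 1 and 5 were mainly XGFP+ constitutive and XGFPhigh cells, and clusters 2 and 4 mainly XGFPintermediate and XGFPlow cells. Since the clusters come from these same cells, the members' levels in them are a description.

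*Smc1b* and *Stag3* ranked the clusters in the same order and were highest in the meiotic-like one. *Smc1b* had medians of 88.7 CPM in cluster 5, 111.8 in cluster 1, 185 in cluster 4, 545 in cluster 2 and 2370 in cluster 3, where the quartiles were 1776 and 2817. *Stag3* followed the same order with 1.14, 8.04, 34.04, 127.1 and 531 CPM. In all 57 cells of cluster 3 *Smc1b* per kb exceeded *Smc1a*, and in 56 *Stag3* exceeded *Stag1*. In cluster 2, *Smc1b* exceeded *Smc1a* in 87 cells (81.3%) and *Stag3* exceeded *Stag2* in 80 (74.8%). Over all 344 cells outside the meiotic-like cluster these shares were 41% and 41.9%.

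The kleisins were arranged differently. *Rec8* was highest in cluster 2, at a mean of 145 CPM and with reads in 98.1% of cells, and lower in cluster 3, at 82.4 CPM and in 66.7% of cells. *Rad21l* was nearly confined to cluster 3, at 80.4 CPM and in 35 of 57 cells (61.4%, interval 47.6 to 74), against 4 of 344 cells in the other clusters. *Rad21* was far lower in cluster 3, with a mean of 24.8 CPM and reads in 36 of 57 cells, against means of 129 to 175 CPM and reads in at least 98.2% of cells in each other cluster. *Smc1a* and *Stag2* were at 202 and 62.3 CPM in cluster 3, and *Smc1a* was lower there than in each other cluster (324 to 398), whereas *Stag2* was lower still in clusters 2 and 4 (58.1 and 30.3). *Smc3* (857 CPM) and *Stag1* (140 CPM) were highest in cluster 3. Of kleisin RNA per kb, cluster 3 held 58.8% *Rad21l*, 34.1% *Rec8* and 7.11% *Rad21*, and cluster 2 held 0.410%, 61.2% and 38.4%.

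**Figure D3:**
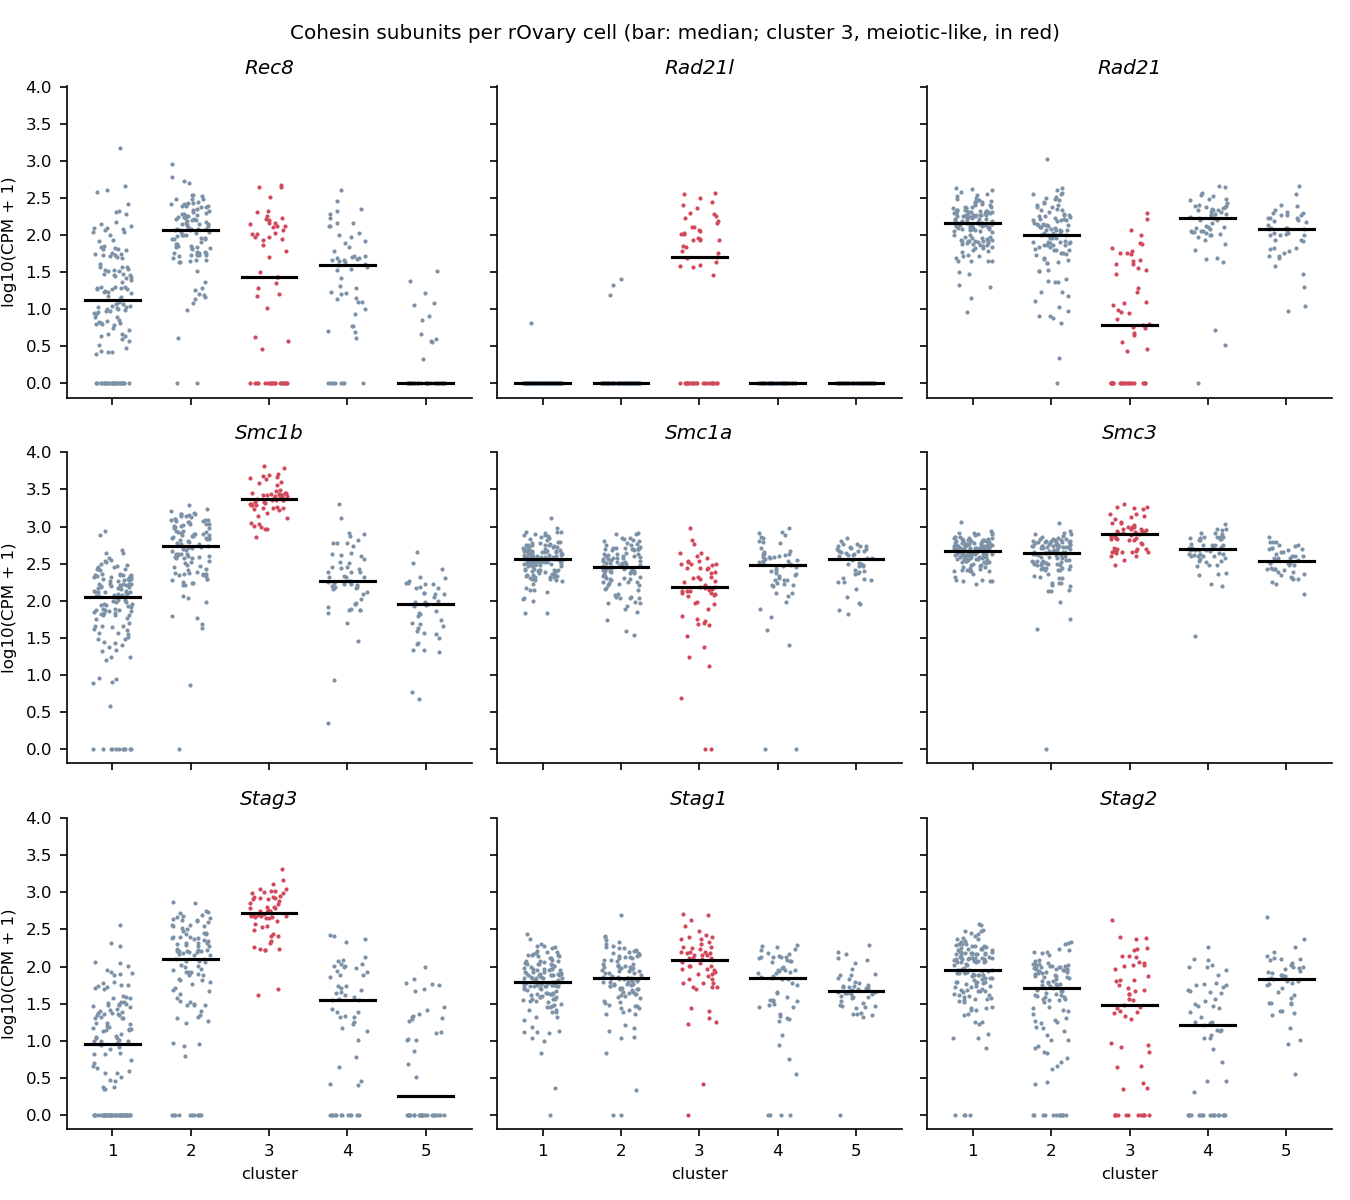
Level of each member in the 401 clustered rOvary cells, as log10(CPM + 1) on the y axis and cluster on the x axis; each point is 1 cell and the black bar is the median, with cluster 3 (meiotic-like, 57 cells) in red. *Smc1b* and *Stag3* have their highest medians in cluster 3 (2370 and 531 CPM), *Rad21l* has reads in 35 cells there, *Rad21* drops there, and *Rec8* is highest in cluster 2.

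Within the meiotic-like cluster *Rec8* and *Rad21l* tended to mark different cells. Reads of both were found in 19 cells, of *Rec8* without *Rad21l* in 19, of *Rad21l* without *Rec8* in 16, and of neither in 3. Across the 57 cells Spearman's rho between them was -0.54. *Rec8* went with *Stra8*, the retinoic acid-induced gene of meiotic entry (rho 0.71), and against *Sycp3* (-0.69), while *Rad21l* went with *Sycp3* (0.60) and against *Stra8* (-0.53). *Smc1b* and *Stag3* went with *Sycp3* (0.63 and 0.42) and against *Rec8* (-0.46 and -0.52). Outside the cluster, over 344 cells, *Rec8* still went with *Stra8* (0.71), and there also with *Smc1b* (0.38) and *Stag3* (0.42). These rho values share the library of each cell, and depth had rho between 0.01 and 0.13 with these 4 genes in cluster 3. All 13 XGFPlow cells of the cluster had *Rec8*, and 3 of them *Rad21l*. Of its 35 XGFPintermediate cells, 21 had *Rec8* and 24 *Rad21l*, and of its 7 XGFPhigh cells, 2 and 7. Among those XGFPintermediate cells, 13 had both, 8 *Rec8* alone, 11 *Rad21l* alone and 3 neither. The pattern over the 57 cells thus includes differences between populations, and rho within a population was not computed.

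**Figure D4:**
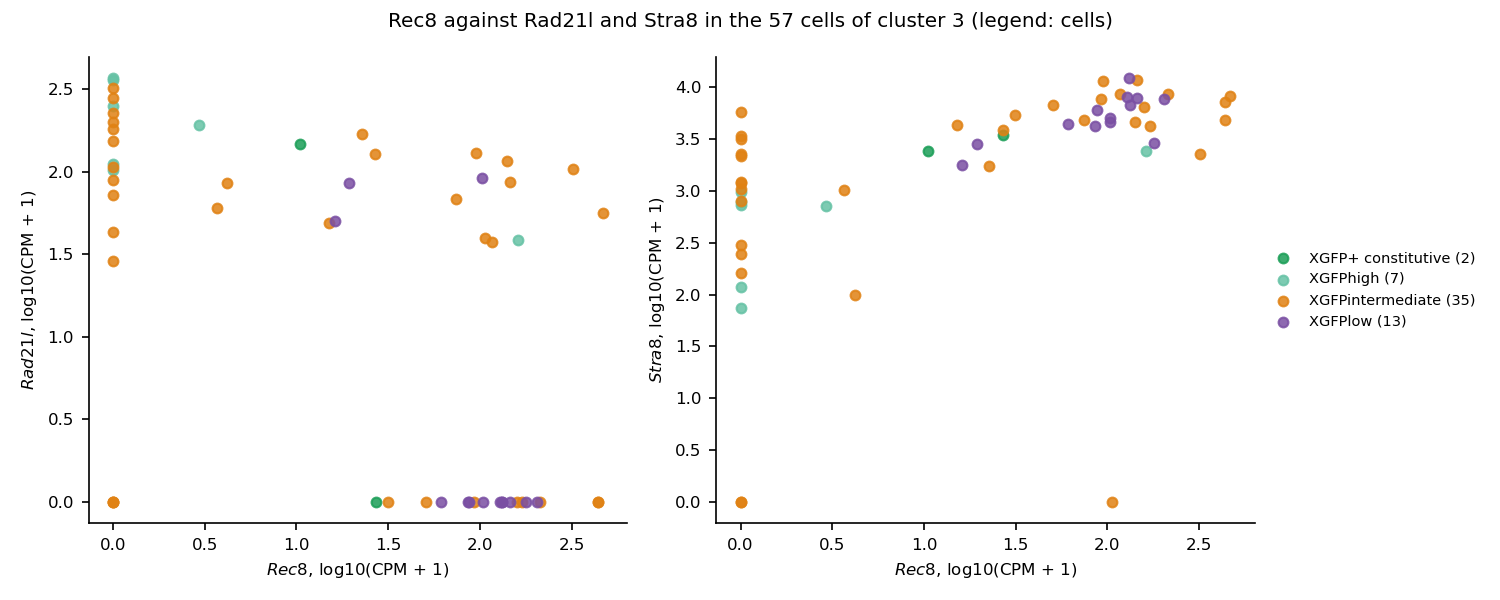
The 57 cells of the meiotic-like cluster 3, with *Rec8* on the x axis and *Rad21l* (left) or *Stra8* (right) on the y axis, all as log10(CPM + 1); colours give the sorted population and the legend the number of cells. Of the 35 cells with *Rad21l*, 16 have no read of *Rec8*, and *Stra8* is high in the cells with *Rec8* (rho -0.54 and 0.71).

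Single-cell reads carry no strand, and some neighbours lie close to the members. *Rec8* and *Ipo4* end 4 bases apart on opposite strands, and *Ipo4* had rho of 0.43 with *Rec8* in cluster 3 and 0.27 outside it, with means of 56.7 CPM in cluster 3 and 102 in cluster 2. *Stag3* starts 235 bases from *Gpc2*, and *Smc1b* and *Smc1a* start nearer still to *Ribc2* and *Ribc1*. *Ribc2* and *Gpc2* were at 12.4 and 7.26 CPM in cluster 3, far below *Smc1b* and *Stag3*. *Ribc1* was at 64.7 CPM there, against 202 for *Smc1a*, and its part in the *Smc1a* values was not tested. The part of *Ipo4* reads in the *Rec8* values was not tested.

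Per cell, the mus share of *Smc1a* spread further in XGFPintermediate and XGFPlow cells than in the other populations. Its median was 0.491 in XGFP+ constitutive (82 cells with a share), 0.469 in XGFPhigh, 0.415 in XGFPintermediate and 0.379 in XGFPlow cells (83), and 0.470 in 23 ESCs. Cells with a share of 0 numbered 0, 3, 16, 16 and 0 in the same order. Shares from 0.1 to 0.9 were found in 95.1% of XGFP+ constitutive cells (exact interval 88 to 98.7), 94.1% of XGFPhigh (88.3 to 97.6), 77.4% of XGFPintermediate (68.2 to 84.9) and 67.5% of XGFPlow cells (56.3 to 77.4). In cluster 3 it was 53.3% of 45 cells (37.9 to 68.3), with 12 cells at 0 and 3 at 1, and *Smc1a* was also lower there, which leaves fewer reads for a share. Read numbers behind the shares were not analysed here.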

How the data were processed

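Bulk RNA was sequenced by the authors as stranded total RNA and single cells by a full-length protocol without strand. Per the labels and the study's methods, reads were aligned with STAR to mm10 with strain variants masked and counted with HTSeq 0.6.1. The deposited bulk values are a signal, counts divided by DESeq2 (1.16) size factors, without a depth of their own. Whole reads were recovered from all 16 columns (100% of values within 0.01 of a whole number). The deposited single-cell table holds raw counts per gene and cell, and the deposited allelic tables hold the fraction of reads from the mus allele. The 4 remaining columns that match no sample were not used.

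The members and lists were chosen with earlier results of these data known. Bulk values were tested with limma-trend (limma 3.58.1, R 4.3.3) on log2(value + 1) over all 16 libraries, for 16281 genes with a mean above 10, with Benjamini-Hochberg adjusted p below 0.001 as the threshold. Fold changes on this scale understate those of low genes. edgeR 4.0.16 and DESeq2 1.42.0 were run on recovered reads, an alternative chosen after seeing the data. The script was tested on simulated data. Ratios and allelic shares were compared by exact two-sided permutation of libraries. Levels per kb used the union of GENCODE exons. Cells with at least 4000 genes, 10000 reads and at most 5% mitochondrial reads were kept (Seurat 5.3.0), and CPM scaled a cell's counts to its total. Doublets were not called, since cells were sorted singly into wells. Cells with *Dazl* above 1 were clustered on 2000 variable genes without members, 20 components and a resolution of 0.8. Sorted populations were not tested, and intervals are 95% exact ones for counting error.

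The labels number the libraries of each group alike. Same-numbered XGFP+ and XGFP- PGCLC libraries deviated together (r of 0.135 to 0.307 in 4 of 4 pairs, other pairs at most 0.0891), which pairs these groups, whereas no other pair of groups had r above 0.1 in all 4. Named regulators were those called in XGFP- against XGFP+ PGCLCs or EpiLCs against ESCs, up to 8 by size, and likeness took the top 4 genes. Alternatives changed pseudocount, filters, scaling, thresholds, libraries, the block, gene length, cells, lanes and clustering.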

Additional observations from a re-analysis of the deposited data

Results flagged for a closer look

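Of 52 groups of 4 libraries examined (members' normalized counts, subunit ratios and the *Stag2* allelic share), 1 held a library that stood apart by Dixon's criterion, and chance gives about 1 in 20. In XGFP- PGCLCs the mus share of *Stag2* was 0.0385 in replicate 1 and 0 in the other 3 libraries, so the gap to the nearest library was the whole range of the group (a ratio of 1.0). With 3 shares at 0, any other value of the remaining library gives this ratio. The criterion thus cannot tell how unusual replicate 1 was. All 4 values lay below the lowest share of any other group, 0.148 in EpiLC replicate 4, and no read numbers come with them.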

How the results depend on the processing

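Of the single members' log2 differences under all alternatives, 1008 kept their direction and side of the threshold, 36 lost a call, 24 gained one and 12 changed sign. With an absolute log2 difference above 1 required, 2, 3, 3, 0 and 0 members and 2, 2, 4, 1 and 1 regulators were called (EpiLCs against ESCs, XGFP+ and XGFP- PGCLCs against EpiLCs, XGFP- against XGFP+ PGCLCs, and XGFP+ PGCLCs against ESCs). At an adjusted p below 0.05, 6 members and 7 regulators were called between the PGCLC groups and 6 members between XGFP+ PGCLCs and ESCs. With only the 2 groups fitted, 1 member and 1 regulator were called between the PGCLC groups and 5 regulators between XGFP+ PGCLCs and ESCs, and quantile normalization left 1 member between the PGCLC groups. Leaving out 1 library at a time gave 4 to 5, 5 to 6, 4 to 6, 1 to 3 and 3 to 3 members and 6 to 9, 11 to 12, 10 to 13, 1 to 3 and 5 to 8 regulators in the first order. With the replicate block 4, 6, 5, 3 and 3 members were called, the third between the PGCLC groups being *Smc1a*, and it changed no other call of a member there. Groups other than the PGCLCs share only a number. For the subunit ratios the pairing was added after seeing the data and cannot reach 0.05. The sign changed for *Smc1a* between XGFP+ PGCLCs and ESCs under quantile normalization (0.0084 against -0.12) and, within -0.041 to 0.038 over the left-out libraries, between XGFP- PGCLCs and EpiLCs. It also changed for *Smc1b* between EpiLCs and ESCs (-0.39 to 0.43 over the left-out libraries, -0.21 in edgeR and -0.20 in DESeq2 against 0.01) and between XGFP- PGCLCs and EpiLCs (-0.25 to 0.074). None of these passed the threshold, and the cause was not tested. With a library left out the exact test cannot reach 0.05, and a median of allelic shares carries no test. With the longest transcript as gene length, 8 of the bulk percentages per kb moved by at least their SD and 8 did not. More members were found in a larger share of XGFPlow than of XGFP+ constitutive cells over both lanes (3) than in lane 2 alone (1), and lane 3 holds no constitutive cells. For *Rad21l* the number of ESCs sets the limit: no read in 24 cells allows a share of up to 14.2%.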
